A study of Mus musculus with 27 samples.

Results

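The genes described here are 9 genes of the glucocorticoid response, out of 46078 gene rows measured in the colonic epithelium of mice given TCDD, a dioxin and a ligand of the aryl hydrocarbon receptor (AhR). They were chosen by name: the receptors Nr3c1 and Nr3c2, the steroid-converting enzymes Hsd11b1 and Hsd11b2, and the target genes Fkbp5, Tsc22d3, Sgk1, Klf9 and Zbtb16. Their levels were set beside those of Dbp, a clock output gene read here as a sign of collection time. All 9 passed the filter on low counts. The animals were 27 male C57BL/6 mice, 28 days old at the start and 56 days old at the end, with 3 mice in each of 9 groups. One group received sesame oil vehicle and the other groups received TCDD by oral gavage at 0.01, 0.03 or 0.1 μg/kg, at 0.3, 1 or 3 μg/kg, or at 10 or 30 μg/kg, every 4 days, 7 times in all, and all mice were taken on day 28. The model is limited to males, to a single time point and to scraped tissue, and no adrenal steroid level was part of the data used here.

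Glucocorticoids reach the colon from the adrenal gland, with a strong daily rhythm, and bind the glucocorticoid receptor encoded by Nr3c1, which is held ready by heat shock protein chaperones and moves to the nucleus when the hormone binds. The mineralocorticoid receptor encoded by Nr3c2 binds glucocorticoids as well, and in the distal colon it answers to aldosterone because the enzyme encoded by Hsd11b2 inactivates glucocorticoids inside the cell. Hsd11b1 encodes the enzyme that regenerates the active hormone. Both receptors switch on genes that feed back on the response, limit inflammation or raise sodium uptake.

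The gene counts per mouse ranged from 9305441 to 14371035, and levels are given as CPM, the counts per 1000000 gene counts after scaling by the TMM method. The exposure was visible in Cyp1a1, the classical AhR target, which had 0 to 2 reads per mouse from vehicle to 0.1 μg/kg, 550 to 1630 at 3 μg/kg and 23969 to 29287 at 30 μg/kg, where 5 of 5 AhR targets were called. All 10 epithelial markers were well expressed in every mouse, with Muc2 at no fewer than 301904 reads and Epcam at no fewer than 8963. Smooth muscle, fibroblast and fat markers were also present and varied between mice. The sequencing index barcodes were used in 2 sets, of which the first held 16 mice (mouse 41 at 1 μg/kg and all mice at lower doses or on vehicle) and the second held 11 mice (mice 43 and 44 at 1 μg/kg and every mouse at 3, 10 and 30 μg/kg), so that the index set followed the dose. In a bulk sample, fewer cells of a type and less RNA per cell cannot be told apart.

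Dbp, whose transcript rises and falls each day under the core clock, also followed the dose. It measured 1.77, 2.00 and 1.37 CPM in the vehicle-treated mice and lay between 1.68 and 5.94 CPM in 8 of the 9 mice at 0.01 to 0.1 μg/kg. Mouse 14 at 0.01 μg/kg, at 60.0 CPM, stood apart from the other mice of its group. Levels ran from 12.2 to 16.7 CPM at 0.3 μg/kg, from 43.9 to 88.0 CPM at 1 μg/kg, from 55.9 to 76.3 CPM at 3 μg/kg, from 65.8 to 88.8 CPM at 10 μg/kg and from 29.4 to 71.5 CPM at 30 μg/kg. All mice at 0.3 μg/kg and above were higher than all vehicle-treated mice, as were those at 0.01 and 0.1 μg/kg by a smaller margin apart from mouse 14. The mice at 0.03 μg/kg overlapped vehicle. Dbp shares exon sequence with Sphk2 on the opposite strand, and the use of strand in counting is not given in the sources used here.

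**Figure D1:**
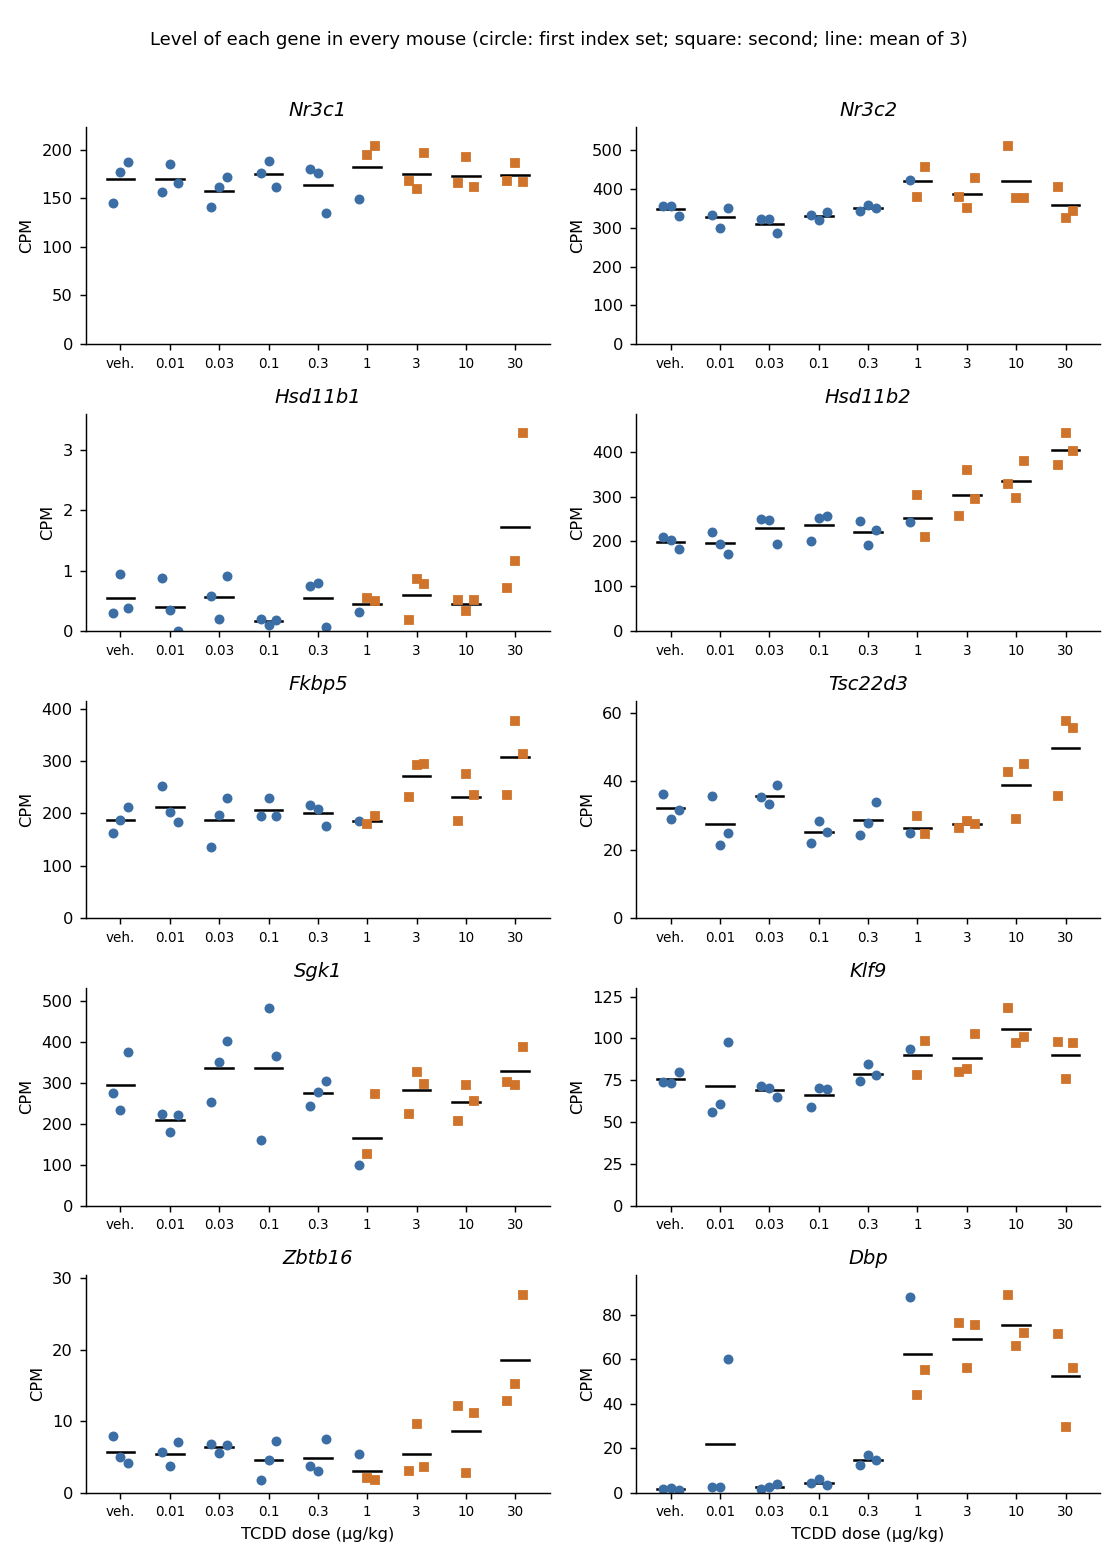
Level in CPM (vertical axes, from 0) of the 9 genes and Dbp in each of 27 mice by TCDD dose in μg/kg (horizontal axes; veh., vehicle), with circles for the first index set, squares for the second and a line at the mean of 3 mice. Hsd11b2 climbed to 371 to 440 CPM at 30 μg/kg, Nr3c1 stayed between 135 and 204 CPM throughout, and Dbp separated the groups from 1 μg/kg up, together with mouse 14 at 0.01 μg/kg, from the rest.

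Compared per length of exon, Hsd11b2 was the most abundant of the 9 genes, at a level of 144 CPM per kb ± 39.9 (SD, n = 27 mice of all doses). Sgk1 at 56.1 ± 17.6 CPM per kb and Nr3c2 at 55.9 ± 7.55 CPM per kb came next and did not differ beyond their spread. Fkbp5 at 23.4 ± 5.50 CPM per kb and Nr3c1 at 22.3 ± 2.29 CPM per kb also lay within each other's spread, as did Klf9 at 17.0 ± 3.22 CPM per kb and the lower part of the Fkbp5 range. Tsc22d3 followed at 7.48 ± 2.12 CPM per kb and Zbtb16 at 1.32 ± 1.03 CPM per kb. Hsd11b1 was lowest, at 0.143 ± 0.145 CPM per kb, which corresponds to 0 to 38 reads per mouse, so differences in this gene rest on very few reads.

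The 8 doses were each set against vehicle in edgeR's quasi-likelihood test, over 16496 genes, and a gene was called where the adjusted p was under 0.05 and it differed 1.5-fold or more. The 8 comparisons share the same 3 vehicle-treated mice. At 0.01, 0.03, 0.1 and 0.3 μg/kg, 0 of the 9 genes were called and 0% of all genes tested were called; at an unadjusted p under 0.05, 0 of the 9 genes passed at each of these doses, against 1047, 766, 1051 and 856 of all genes, and DESeq2 also called 0 of the 9. At 1 μg/kg 0 of the 9 were called and 0 by DESeq2, beside 0.2% of all genes called. At an unadjusted p under 0.05, 3 of the 9 passed at this dose, against 1616 of the 16496 genes. At 3 μg/kg 1 of the 9 was called, Hsd11b2, beside 0.697% of all genes. At 10 μg/kg 1 of the 9 was called, again Hsd11b2, beside 1.78% of all genes. At 30 μg/kg 4 of the 9 rose, namely Hsd11b2, Fkbp5, Tsc22d3 and Zbtb16, and 0 fell, beside 6.16% of all genes called, and the median log2 fold change was 0.62 over the 9 genes and -0.0022 over all genes. In 3 of the 9 (Hsd11b2, Fkbp5 and Zbtb16) every mouse at 30 μg/kg lay above every vehicle-treated mouse, which held for 14.5% of all genes.

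**Figure D2:**
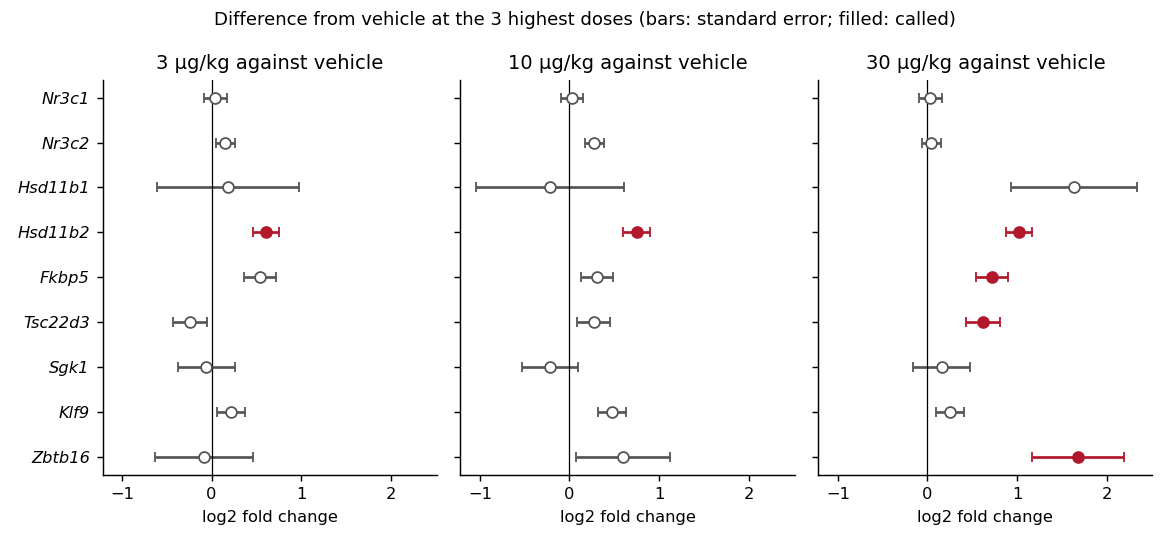
Log2 fold change against vehicle (horizontal axis) of each of the 9 genes (vertical axis) at 3, 10 and 30 μg/kg, 3 mice per group, with bars for the standard error and filled points for genes called. Hsd11b2 is the gene called at all 3 doses, with 0.61, 0.75 and 1.02, while Fkbp5, Tsc22d3 and Zbtb16 were called at 30 μg/kg.

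The receptor genes differed little between groups. Nr3c1 (chr18:39410545-39519421, minus strand, GRCm38) spanned 135 to 204 CPM over all 27 mice, a 1.51-fold range, and the groups overlapped at every dose. Its level at 30 μg/kg was 174 ± 11.4 CPM against 170 ± 21.9 CPM in vehicle-treated mice (SD, n = 3 each), a log2 fold change of 0.031 ± 0.128 (SE) with an adjusted p of 0.908. Nr3c2 (chr8:76899442-77245012, plus strand) measured 357, 356 and 330 CPM in vehicle-treated mice, 424, 380 and 457 CPM at 1 μg/kg, 510, 378 and 376 CPM at 10 μg/kg and 405, 325 and 345 CPM at 30 μg/kg. Its mice at 1 and 10 μg/kg lay above all vehicle-treated mice and those at 30 μg/kg overlapped them. The log2 fold changes were 0.27 ± 0.107 at 1 μg/kg (adjusted p = 0.369), 0.28 ± 0.107 at 10 μg/kg (adjusted p = 0.164) and 0.044 ± 0.107 at 30 μg/kg (adjusted p = 0.837), none of them called. Exons of Nr3c2 overlap those of Gm10649, a non-coding gene on the opposite strand, which had 7 to 26 reads per mouse beside 3244 to 5982 for Nr3c2.

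The enzyme pair went separate ways in abundance and in certainty. Hsd11b2 (chr8:105518755-105523988, plus strand), which encodes the inactivating enzyme that shields the mineralocorticoid receptor, measured 211, 204 and 182 CPM in vehicle-treated mice. It measured 256, 359 and 295 CPM at 3 μg/kg, 327, 297 and 380 CPM at 10 μg/kg and 371, 440 and 402 CPM at 30 μg/kg. Every mouse at these doses was above every vehicle-treated mouse, while the groups from 0.01 to 1 μg/kg overlapped vehicle, with means between 196 and 252 CPM.

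Hsd11b2 rose 1.52-fold at 3 μg/kg (log2 fold change 0.61 ± 0.146, SE, adjusted p = 0.0369), 1.68-fold at 10 μg/kg (0.75 ± 0.146, adjusted p = 0.0058) and 2.03-fold at 30 μg/kg (1.02 ± 0.147, adjusted p = 0.000129). At 30 μg/kg it was called under all 8 other settings and without any one of the 6 mice, with log2 fold changes between 0.95 and 1.43. At 3 and 10 μg/kg the call was lost with the index set as a term (0.54, adjusted p = 0.346, and 0.68, adjusted p = 0.202) and with Dbp as a covariate (1.06, adjusted p = 0.242, and 1.22, adjusted p = 0.103). The index set term is carried by the 3 mice at 1 μg/kg, the only dose with mice in both sets. At 3 μg/kg the call was also lost without any of the 3 vehicle-treated mice or without mouse 51 or 52, with log2 fold changes of 0.47 to 0.72 over the 6 mice left out in turn.

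Hsd11b1 (chr1:193221634-193264075, minus strand), which encodes the reactivating enzyme, had 3, 9 and 4 reads in vehicle-treated mice and 10, 14 and 38 reads at 30 μg/kg. The 38 reads belonged to mouse 67, which also had the highest summed fat and smooth muscle markers of all mice. The log2 fold change was 1.64 ± 0.706 (adjusted p = 0.136) with all mice and 0.79 (adjusted p = 0.586) without mouse 67, so no call was made, and the value turned on 1 mouse. The groups were separate in reads, while in CPM the lowest mouse at 30 μg/kg, at 0.719, lay below the highest vehicle-treated mouse, at 0.949.

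Among the target genes, the promoter sequences are shown for a gene that was called (Fkbp5), for the one that held the full receptor site (Sgk1) and for the one that moved most closely with Dbp (Klf9). Each is the 250 bases before a start site listed by RefSeq on GRCm38.p6, in the direction of the gene, and none of the 3 windows overlaps an exon of GENCODE M21. RefSeq starts were listed for 6 of the 9 genes, 13 starts in all, and those of Hsd11b2, Zbtb16 and Nr3c1 are not shown. Capitals mark matches, on either strand, to the receptor element (AGAACA, any 3 bases, then TGTTCT), to one arm of it (AGAACA), to the E-box CACGTG bound by clock factors, or to GCGTG, the core of the AhR element; the arm is part of the full element.
Fkbp5 (chr17:28486150-28486399, minus strand): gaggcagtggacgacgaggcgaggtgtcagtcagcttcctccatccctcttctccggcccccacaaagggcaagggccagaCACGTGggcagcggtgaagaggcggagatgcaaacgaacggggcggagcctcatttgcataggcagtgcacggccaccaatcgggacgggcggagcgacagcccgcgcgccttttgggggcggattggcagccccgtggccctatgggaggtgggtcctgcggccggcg
Sgk1 (chr10:21993640-21993889, plus strand): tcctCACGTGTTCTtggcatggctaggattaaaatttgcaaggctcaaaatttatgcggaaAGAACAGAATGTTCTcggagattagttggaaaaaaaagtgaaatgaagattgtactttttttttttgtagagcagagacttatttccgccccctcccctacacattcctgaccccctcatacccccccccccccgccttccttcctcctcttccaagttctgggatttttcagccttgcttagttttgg
Klf9 (chr19:23140976-23141225, plus strand): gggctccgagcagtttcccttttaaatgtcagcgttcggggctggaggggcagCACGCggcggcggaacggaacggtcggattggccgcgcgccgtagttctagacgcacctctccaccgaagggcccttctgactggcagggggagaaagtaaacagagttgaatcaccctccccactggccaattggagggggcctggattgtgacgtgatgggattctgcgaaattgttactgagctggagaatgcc

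The full receptor element began 189 bases before this Sgk1 start, 1 of 6 starts listed for the gene, and only 3 of the 32851 start windows searched, or 0.00913%, held it. The same window held an E-box that overlaps one arm, 246 bases before the start. The Fkbp5 window held an E-box 169 bases before the start, as did 6.02% of all windows, and no receptor arm; the best studied receptor sites of Fkbp5 lie in its introns, outside this window. The Klf9 window held 1 AhR core 197 bases before the start, a motif present in 28.2% of all windows. In the other windows, a receptor arm, which 16.1% of all windows held, was found at 1 of 3 starts of Tsc22d3 and at 2 further starts of Sgk1, and an AhR core at the starts of Nr3c2 and Hsd11b1 and at 2 further starts of Sgk1. A match is a description of the letters and shows no binding, and the counts are per gene, so they do not tell which start was used.

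Fkbp5 encodes a co-chaperone that lowers the hormone affinity of the glucocorticoid receptor and is among its most used target genes. It measured 163, 187 and 212 CPM in vehicle-treated mice, 230, 292 and 294 CPM at 3 μg/kg, 185, 276 and 234 CPM at 10 μg/kg and 236, 377 and 313 CPM at 30 μg/kg. The mice at 3 and 30 μg/kg lay above all vehicle-treated mice and those at 10 μg/kg overlapped them. The lower level at 10 than at 3 μg/kg was not called (log2 fold change -0.23 ± 0.178, adjusted p = 0.99). Fkbp5 rose 1.65-fold at 30 μg/kg (log2 fold change 0.72 ± 0.179, adjusted p = 0.0128), while the values at 3 μg/kg (0.54 ± 0.179, adjusted p = 0.136) and 10 μg/kg (0.31 ± 0.179, adjusted p = 0.386) did not pass. The call at 30 μg/kg was lost without vehicle-treated mouse 2 (0.63, adjusted p = 0.0648) or without mouse 66 at 30 μg/kg (0.55, adjusted p = 0.0799), with the index set as a term (0.70, adjusted p = 0.224) and with Dbp as a covariate (1.03, adjusted p = 0.0888).

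Tsc22d3 encodes the glucocorticoid-induced leucine zipper protein, which restrains inflammatory signalling. It measured 36.3, 29.1 and 31.6 CPM in vehicle-treated mice, 26.4, 28.5 and 27.5 CPM at 3 μg/kg, 42.8, 29.0 and 45.1 CPM at 10 μg/kg and 35.7, 57.8 and 55.8 CPM at 30 μg/kg. One mouse at 30 μg/kg, mouse 65, fell within the vehicle range, and all mice at 3 μg/kg were below it. Tsc22d3 rose 1.54-fold at 30 μg/kg (log2 fold change 0.62 ± 0.187, adjusted p = 0.0353). This call was lost in 5 of the 6 fits that left out 1 mouse (vehicle-treated mice 2, 3 and 4 and mice 66 and 67 at 30 μg/kg), which gave 0.50 to 0.72, with adjusted p up to 0.15. It was also lost with limma voom (0.58, adjusted p = 0.0497), there only because the value lay just under the 1.5-fold limit. The call was lost as well with only the 2 groups in the fit (0.62, adjusted p = 0.0717), with the index set as a term (0.49, adjusted p = 0.454) and with Dbp as a covariate (0.84, adjusted p = 0.19).

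Zbtb16 encodes a zinc finger repressor that glucocorticoids induce strongly in many cell types. It measured 7.97, 5.06 and 4.22 CPM in vehicle-treated mice, 3.03, 9.61 and 3.64 CPM at 3 μg/kg, 12.1, 2.74 and 11.2 CPM at 10 μg/kg and 12.8, 15.2 and 27.7 CPM at 30 μg/kg. All mice at 30 μg/kg lay above all vehicle-treated mice, and those at 3 and 10 μg/kg overlapped them. Zbtb16 rose 3.21-fold at 30 μg/kg (log2 fold change 1.68 ± 0.515, adjusted p = 0.037). The call was lost without vehicle-treated mouse 2, 3 or 4 or without mouse 66 or 67 at 30 μg/kg, with values of 1.28 to 2.00 over the 6 mice left out in turn and adjusted p up to 0.165, with the index set as a term (3.19, adjusted p = 0.06) and with Dbp as a covariate (1.05, adjusted p = 0.597). It held under 6 of 8 other settings that kept all mice. Among them was the Hox score, a measure of position along the gut, as a covariate (1.51 ± 0.339, adjusted p = 0.0048). In the order of the levels above, this score was 1.57, -1.09 and 1.22 at 10 μg/kg. It was 1.14, 0.323 and 0.417 at 30 μg/kg and 1.16, -0.311 and -0.436 on vehicle. The part of position in the spread of Zbtb16 was not tested further.

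Sgk1 and Klf9 were not called at any dose. Sgk1, a kinase that keeps the epithelial sodium channel at the cell surface, varied widely within groups: 274, 232 and 375 CPM in vehicle-treated mice, 161, 483 and 367 CPM at 0.1 μg/kg and 98.0, 126 and 272 CPM at 1 μg/kg. Its largest difference, at 1 μg/kg, was a log2 fold change of -0.83 ± 0.32 with an adjusted p of 0.353 and overlapping groups. It measured 303, 295 and 388 CPM at 30 μg/kg, a log2 fold change of 0.16 ± 0.317 (adjusted p = 0.792).

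Klf9, a transcription factor that both glucocorticoids and the clock control, measured 74.0, 73.5 and 79.8 CPM in vehicle-treated mice, 118, 97.1 and 101 CPM at 10 μg/kg and 97.9, 75.7 and 97.3 CPM at 30 μg/kg. All mice at 10 μg/kg and only 2 of 3 at 30 μg/kg were above the vehicle range. The log2 fold changes were 0.48 ± 0.154 at 10 μg/kg (adjusted p = 0.0931) and 0.25 ± 0.154 at 30 μg/kg (adjusted p = 0.304).

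The slope of each gene over dose rank, from vehicle to 30 μg/kg, was tested in all 27 mice at an adjusted p under 0.05. By this test 5 of the 9 genes rose (Hsd11b2, Fkbp5, Klf9, Nr3c2 and Zbtb16) and 0 fell, beside 23.4% of all genes called. The same test called 5 of 8 smooth muscle, 2 of 4 endothelial, 1 of 6 fibroblast and 5 of 10 epithelial markers upward and 0 of 6 fat markers, and 12 of 17 clock genes upward and 5 downward. Hsd11b2 rose by 0.12 ± 0.0139 on the log2 scale per dose step (adjusted p = 6.99e-07), Fkbp5 by 0.071 ± 0.0179 (adjusted p = 0.00428), Klf9 by 0.064 ± 0.015 (adjusted p = 0.00255), Nr3c2 by 0.038 ± 0.0117 (adjusted p = 0.0185) and Zbtb16 by 0.17 ± 0.0534 (adjusted p = 0.0233). With the index set as a term 0 of these 5 calls held, with adjusted p from 0.0957 for Hsd11b2 to 0.855 for Nr3c2, and with Dbp as a covariate the slopes of Klf9 (-0.013) and Nr3c2 (-0.015) turned negative, those of Fkbp5 (0.10, adjusted p = 0.0766) and Zbtb16 (0.26, adjusted p = 0.127) were not called, and that of Tsc22d3 was (0.14, adjusted p = 0.045). The Zbtb16 call was also lost with DESeq2 (0.16, adjusted p = 0.0542), with limma voom (0.15, adjusted p = 0.102), with the Hox score, a measure of position along the gut, as a covariate (0.12, adjusted p = 0.0692), and without mouse 66 (adjusted p = 0.0572) or mouse 67 (adjusted p = 0.14) at 30 μg/kg.

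The 3 highest doses lie in the second index set and their Dbp levels overlap. Markers of other cells still differed in the fitted values between 30 and 3 μg/kg: 8 of 8 smooth muscle markers (median log2 fold change 1.08), 6 of 6 fat markers (1.73) and 4 of 4 endothelial markers (0.64) were above 0, and 0 of 8 proximal Hox genes were (-0.31), with 0 called in each list. Their part in the differences between these doses was not tested. Between 30 and 3 μg/kg, 1 of the 9 genes was called, Tsc22d3, beside 0.461% of all genes. Tsc22d3 was 1.81-fold higher at 30 μg/kg (log2 fold change 0.85 ± 0.188, adjusted p = 0.0324), and all 3 mice at 30 μg/kg were above all 3 at 3 μg/kg, whereas Dbp differed by -0.40 ± 0.597 (adjusted p = 0.867). With Dbp as a covariate Tsc22d3 was at 0.83 (adjusted p = 0.0468). With only these 2 groups in the fit it was at 0.85 (adjusted p = 0.0982), and without any of the 3 mice at 3 μg/kg or mouse 66 or 67 at 30 μg/kg it was not called, with values of 0.73 to 0.88 and adjusted p up to 0.149. Every mouse at 30 μg/kg was also above every mouse at 3 μg/kg for Hsd11b2 (0.42 ± 0.145, adjusted p = 0.243) and Zbtb16 (1.77 ± 0.511, adjusted p = 0.13), that is for 3 of the 9 genes, as for 7.97% of all genes. Without the filter on low counts Zbtb16 was called as well (1.76, adjusted p = 0.0257).

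Between 10 and 3 μg/kg 0 of the 9 genes were called and 0 by DESeq2, beside 0.0485% of all genes. At an unadjusted p under 0.05, 1 of the 9 passed (Tsc22d3, 0.51 ± 0.188), against 791 of all genes. Between 1 and 0.3 μg/kg, where Dbp stepped from 12.2 to 16.7 CPM up to 43.9 to 88.0 CPM, 0 of the 9 were called and 0 by DESeq2, beside 0.00606% of all genes. At an unadjusted p under 0.05 the genes that passed there were Nr3c2 (0.25 ± 0.107) and Sgk1 (-0.74 ± 0.32), against 991 of all genes.

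Each gene was then set against Dbp on the log2 CPM scale within each index set, 18 relations in all with 100000 permutations each (two-sided). Mice were exchanged across doses within a set, while Dbp in the first set itself rose with dose. The correlations and their p-values therefore do not separate Dbp from dose. After adjustment 0 of the 18 passed, and 4 Pearson correlations had an unadjusted p under 0.05. Klf9 gave r = 0.687 in the first set (n = 16, permutation p = 0.00339, adjusted p = 0.061; Spearman rho = 0.394, adjusted p = 0.515) and r = 0.714 in the second (n = 11, permutation p = 0.0105, adjusted p = 0.0726; rho = 0.645, adjusted p = 0.515). Nr3c2 gave r = 0.614 in the first set (permutation p = 0.0121, adjusted p = 0.0726; rho = 0.424) and r = 0.639 in the second (permutation p = 0.0353, adjusted p = 0.159; rho = 0.464). Without the 2 mice farthest from the median Dbp (mouse 14 at 0.01 μg/kg and mouse 41 at 1 μg/kg in the first set, mouse 43 at 1 μg/kg and mouse 66 at 30 μg/kg in the second), r was 0.31 and 0.435 for Klf9 and 0.289 and 0.545 for Nr3c2. None of these 4 had an unadjusted permutation p under 0.05, so at that level the relations were seen only with those mice included; leaving them out also narrows the range of Dbp, which by itself lowers r.

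Mouse 14, at a dose with 0 genes called, was 1 of the 2 mice left out of the first set above. Its values are part of that correlation and add no separate support to it. Mouse 14 had 97.7 CPM of Klf9, against 56.0 and 60.7 CPM in the other mice at 0.01 μg/kg, together with 60.0 CPM of Dbp against 2.74 and 2.53 CPM. Its Nr3c2, at 351 CPM, and its Zbtb16, at 7.03 CPM, were also the highest of the group, and its Hsd11b2, at 173 CPM, its Fkbp5, at 183 CPM, and its Hsd11b1, at 0 reads, were the lowest, though a rank among 3 mice carries little weight. For Hsd11b2 the correlation with Dbp was -0.0441 in the first set and -0.323 in the second, and for Fkbp5 it was 0.012 and -0.424, none of which passed.

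**Figure D3:**
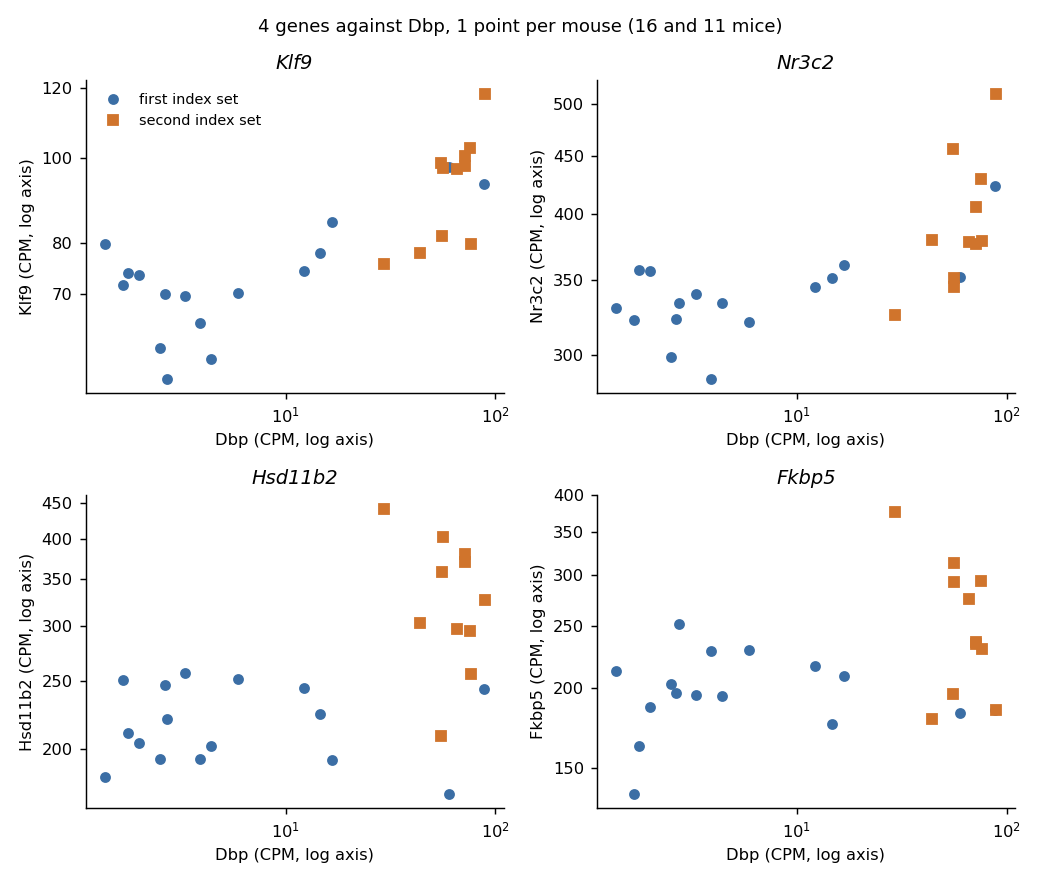
Level of Klf9, Nr3c2, Hsd11b2 and Fkbp5 (vertical axes, CPM, log scale) against Dbp (horizontal axes, CPM, log scale), 1 point per mouse, with circles for the 16 mice of the first index set and squares for the 11 of the second. Klf9 is at 93.5 and 97.7 CPM in the 2 circles at high Dbp, within the range of the squares, while Hsd11b2 in the same 2 mice, at 244 and 173 CPM, is not above the other circles.

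Beyond the 9 genes, 22 other genes known as glucocorticoid targets were followed, of which 21 were tested. At 30 μg/kg 3 rose and 2 fell, beside 6.16% of all genes called, 16 of the 21 had a fitted value above 0, and the median over the list was 0.12 on the log2 scale. The risers were Hif3a, an inhibitor of hypoxia signalling (1.05 ± 0.176, adjusted p = 0.000589), Per1, a clock gene with glucocorticoid sites (1.55 ± 0.337, adjusted p = 0.00533), and Irs2, an adaptor of the insulin receptor (0.84 ± 0.204, adjusted p = 0.0107). The genes that fell were Cebpd, a transcription factor of the acute phase (-1.50 ± 0.267, adjusted p = 0.00101), and Bcl6, a repressor (-0.81 ± 0.193, adjusted p = 0.00973). The genes called thus went in both directions. The summed level of the list was 1154 to 1330.3 CPM in vehicle-treated mice and 1330.8 to 1539 CPM at 30 μg/kg, so that the groups were separate by a narrow margin. At 3 μg/kg 2 rose and 1 fell (0.697% of all genes called), and at 10 μg/kg 3 rose and 1 fell (1.78%).

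Of 11 genes of aldosterone action and sodium and water transport, 2 rose and 0 fell at 30 μg/kg, beside 6.16% of all genes called. At this dose 10 of the 11 had a fitted value above 0, and the median over the list was 0.28 on the log2 scale. Usp2, a deubiquitinase tied to both aldosterone and the clock, rose by 1.79 ± 0.293 on the log2 scale (adjusted p = 0.000485) and Slc9a3, the apical sodium-proton exchanger, by 0.86 ± 0.144 (adjusted p = 0.000589). Kcnma1, a potassium channel, was at 0.37 ± 0.116 (adjusted p = 0.0424), under the fold change set, and Atp1b1, a regulatory subunit of the sodium pump, at 0.28 ± 0.102 (adjusted p = 0.0741). Usp2 was already called at 3 μg/kg, where 1 of the 11 rose (0.697% of all genes called), and both rose at 10 μg/kg (1.78%). The summed level of the list was 2849 to 3947 CPM in vehicle-treated mice and 3681 to 4646 CPM at 30 μg/kg, and the groups overlapped. The subunits of the sodium channel itself, Scnn1a (0.17 ± 0.202, adjusted p = 0.631) and Scnn1b (0.13 ± 0.218, adjusted p = 0.761), and Scnn1g (1.47 ± 0.739, adjusted p = 0.204), named after their values were seen, were not called.

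**Figure D4:**
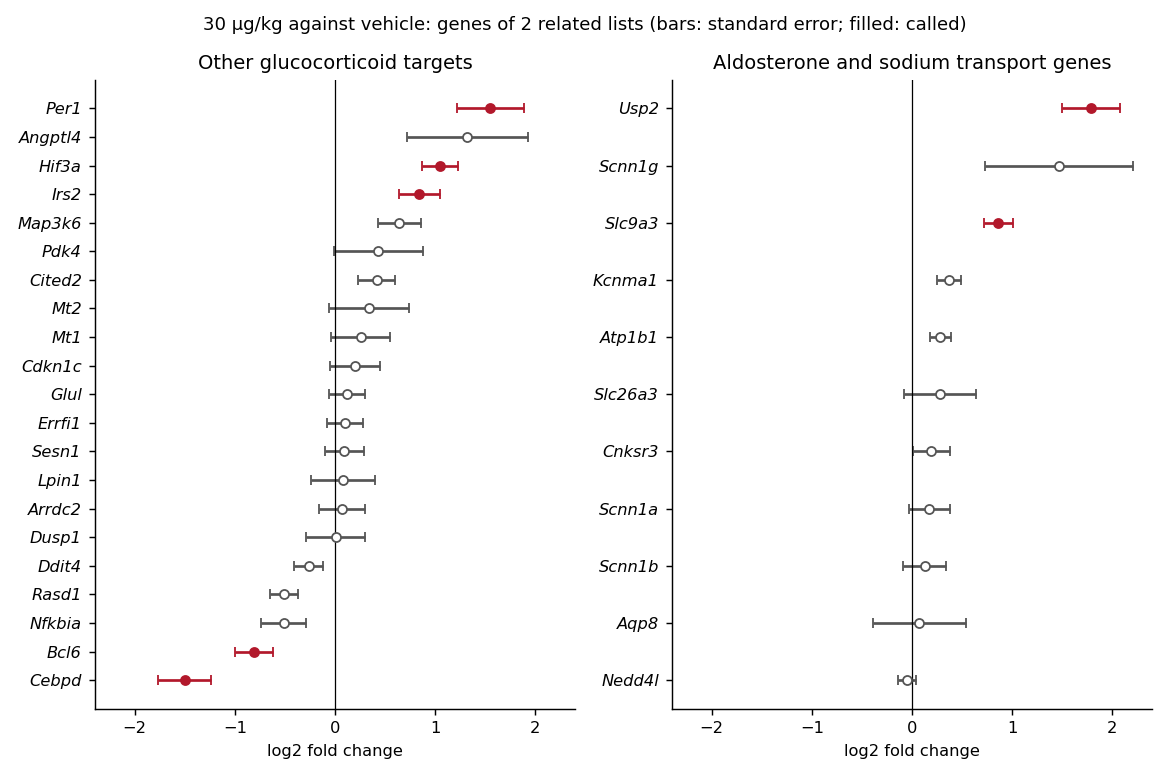
Log2 fold change at 30 μg/kg against vehicle (horizontal axes, 3 mice per group) of 21 other glucocorticoid targets (left) and 11 genes of aldosterone action and sodium transport (right), sorted by value, with bars for the standard error and filled points for genes called. The left list has 3 genes that rose and 2 that fell; the right list has 2 that rose and 0 that fell.

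Among the receptor's partners and in local steroid metabolism 1 gene each was called at 30 μg/kg, where 6.16% of all genes were called. Counts this small do not set these lists apart from that share. Of 13 chaperones and co-regulators, 1 rose at 30 μg/kg, the constitutive chaperone Hspa8 (0.62 ± 0.0958, adjusted p = 0.000264), and 0 fell, with a median of 0.057. The co-repressor Nrip1 (-0.26 ± 0.078, adjusted p = 0.0348) passed the adjusted p but not the fold change, and Stip1 (0.25 ± 0.104), Ncor1 (-0.19 ± 0.0853) and Ncoa2 (0.16 ± 0.0727) did not pass, with adjusted p of 0.124 to 0.169. Of 14 genes of local steroid metabolism 10 were tested and 1 rose, Por, the electron donor of cytochrome P450 enzymes (0.61 ± 0.15, adjusted p = 0.0112). H6pd, which supplies the cofactor of the enzyme encoded by Hsd11b1, was at 0.43 ± 0.181 (adjusted p = 0.128), and the steroid exporter Abcb1a at 0.42 ± 0.135 (adjusted p = 0.0479), Nr5a2 at -0.18 ± 0.118 (adjusted p = 0.35) and Srd5a3 at 0.13 ± 0.114 (adjusted p = 0.501).

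Most of the clock genes followed were called at 30 μg/kg. Of 17 clock genes, Dbp and Per1 among them, 12 rose and 4 fell at 30 μg/kg, beside 6.16% of all genes called, and the 5 of lowest p were Cry2 (1.36 ± 0.163), Npas2 (-2.18 ± 0.295), Per2 (3.00 ± 0.429), Nr1d2 (1.78 ± 0.255) and Tef (3.22 ± 0.469), with adjusted p of 0.000142 or less. Counts were alike at 3 μg/kg, with 10 up and 4 down beside 0.697% of all genes. Dbp itself was at 4.93 ± 0.839 (adjusted p = 0.000683). Per the study's methods tissue was taken within a few hours of lights on, and TCDD is known to disturb rhythmic transcription in the mouse liver. Dbp therefore cannot tell collection time from a change of the clock with dose, and neither can be told apart from dose where the higher doses are compared with vehicle. Their part in the differences of the 9 genes was not tested beyond the fits with Dbp.

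Markers of other cell types differed between the same groups at 30 μg/kg, where 6.16% of all genes were called. All 8 smooth muscle markers had reads in every mouse, and their summed level was 53.1 to 96.6 CPM in vehicle-treated mice and 105 to 701 CPM at 30 μg/kg; 8 of 8 had a fitted log2 fold change above 0 there (median 2.34), and 0 were called by edgeR. The 6 fat markers, of which Plin1, Cfd and Lep had 0 reads in at least 1 mouse, summed to 6.89 to 27.3 CPM in vehicle-treated mice and to 25.1, 60.5 and 202 CPM at 30 μg/kg, and 3 of the 6 were called (Cidec, Cfd and Fabp4, 1.80 to 3.03). Of 4 endothelial markers 2 were called (Cdh5, 2.34, and Kdr, 1.26) and of 6 fibroblast markers 1 (Dcn, 1.51), against 0 of 7 immune, 0 of 1 enteric neuron or glia and 0 of 10 epithelial markers tested, and 0 of 5 distal and 0 of 8 proximal Hox genes, which mark position along the gut, were called. The proximal Hox genes were all below 0 in fitted value at 30 μg/kg (0 of 8 above 0, median -0.44) and at 10 μg/kg (0 of 8, median -0.35). The highest sums of smooth muscle and fat markers both belonged to mouse 67, which was highest in Zbtb16 and Hsd11b1 but not in Hsd11b2, Fkbp5 or Tsc22d3. Without mouse 67 the log2 fold changes at 30 μg/kg were 1.28 for Zbtb16 (adjusted p = 0.165), 1.03 for Hsd11b2 (adjusted p = 0.000788), 0.71 for Fkbp5 (adjusted p = 0.0347) and 0.53 for Tsc22d3 (adjusted p = 0.129). The part of these cells in the results was not tested.

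**Figure D5:**
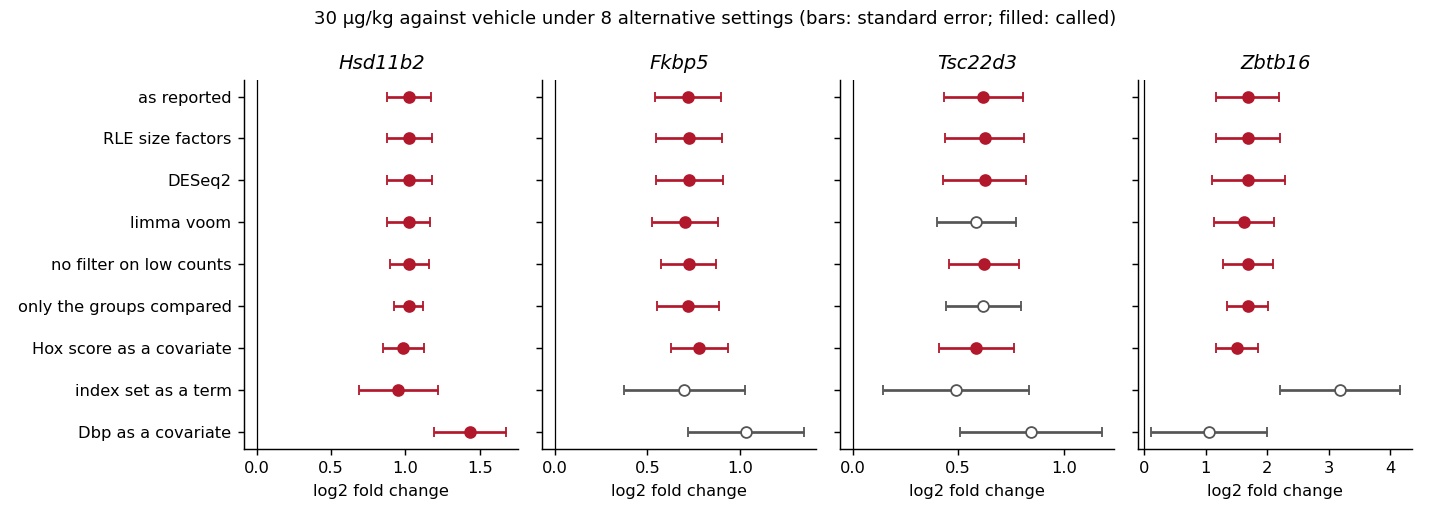
Log2 fold change at 30 μg/kg against vehicle (horizontal axes, with bars for the standard error) of the 4 genes called, as reported and under 8 other settings (vertical axis); filled points were called. Hsd11b2 is filled in every row, and the other genes lose the call with the index set as a term and with Dbp as a covariate, Tsc22d3 also with limma voom and with only the 2 groups in the fit.

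Over the 27 mice, pairs of the 9 genes were compared by Pearson's r of log2 CPM, as a description, since the mice share doses and index sets. The closest pair was Klf9 and Nr3c2 (r = 0.791), followed by Tsc22d3 and Zbtb16 (0.774), Hsd11b2 and Tsc22d3 (0.612) and Fkbp5 and Hsd11b2 (0.594). Nr3c1 and Zbtb16 were the most opposed, at -0.475.

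Among all 16495 other genes tested, those most like each of the 9 genes were, for Hsd11b2, Exoc3 (r = 0.893) and Lgals4 (0.885), for Fkbp5, Slc6a6 (0.915) and Gpt (0.91), for Klf9, Bfar (0.901) and Fchsd2 (0.884), and for Nr3c1, Sult1d1 (0.882) and Foxj3 (0.825). For Nr3c2 they were Gramd1b (0.863) and Gcnt2 (0.851), for Zbtb16, Best2 (0.832) and Cacna1c (0.818), for Tsc22d3, Stard13 (0.79) and Pllp (0.779), for Hsd11b1, Srgn (0.771) and C4b (0.729), and for Sgk1, Pde12 (0.751) and Klhl7 (0.7). None of these was another of the 9 genes. The number of genes above r = 0.8 was 39 for Fkbp5, 38 for Hsd11b2 and 21 for Klf9, and 0 for Tsc22d3, Sgk1 and Hsd11b1.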

How the data were processed

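For each mouse the authors deposited raw counts of reads per gene, not normalized. The submitters' processing notes name FastQC 0.11.3, Trimmomatic 0.33, TopHat2 2.1.0, SAMtools 1.2.0, HTSeq 0.6.1, DESeq and GRCm38; the annotation and use of strand are not given in the sources used here. Closing lines that name no gene (no feature, 29.1 to 33.3%; not unique, 30.7 to 37.1%) were left out. Genes were filtered with filterByExpr (edgeR 4.0.16, R 4.3.3, minimum count 10), leaving 16496, scaled by TMM, and all 27 mice entered 1 quasi-likelihood fit; Benjamini-Hochberg adjustment covered every gene tested. Standard errors came from the fold change and F. Log2 CPM used a prior count of 2. Exon lengths and coordinates came from GENCODE M21 on GRCm38. Index sets were inferred from the order in which 16 barcodes recur (11 used 2 times); no label states them, and those used once could belong to either. No pair of mice in a group differed by less than sampling noise (chi-square per degree of freedom of at least 5.84). Nothing states separate cages or litters. Steps were tested on simulated data. Alternatives were RLE factors, DESeq2 1.42.0, limma voom 3.58.1, no filter, only the groups compared, 1 mouse left out, adjusted p alone, log10 of dose for the slope, and the index set, Dbp or a Hox score (5 distal minus 8 proximal genes) as a covariate. The genes and lists were chosen with earlier results of these data known, and 2 list genes are not reported here. Named genes were the 9 and Dbp, Cyp1a1, up to 5 genes of lowest p at 30 μg/kg per list, and the 2 most like each of the 9. Outside this rule, overlapping genes, some cell type markers and the sodium channel subunits were also named. Counting limits come from depth: 9305441 to 14371035 gene counts per mouse.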

Additional observations from a re-analysis of the deposited data

How the results depend on the processing

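Hsd11b2 at 30 μg/kg was the one of the 4 genes called that kept its call under every alternative. With the index set as a term the number of the 9 genes called was 0 at 3 μg/kg (1 as reported), 0 at 10 μg/kg (1), 1 at 30 μg/kg (4) and 0 for the slope (5). With Dbp as a covariate it was 0, 0 and 1 at these doses and 2 for the slope. For 30 against 3 μg/kg (1) it was 2 without the filter on low counts and 0 with only the groups compared. Leaving out 1 mouse gave 0 to 1 at 3 μg/kg, 1 to 4 at 30 μg/kg, 0 to 1 for 30 against 3 μg/kg and 4 to 7 for the slope. No paired analysis was possible because no mouse number recurs between groups. In the comparisons of 3, 10 and 30 μg/kg with vehicle, dose, index set and Dbp differed together and cannot be told apart, and the causes of the changes below were not tested. Hsd11b1 rests on 0 to 38 reads per mouse. With 1 mouse left out, its value at 30 μg/kg ranged from 0.79 without mouse 67 to 2.27 without vehicle-treated mouse 3. Over the settings that kept all mice it ranged from 0.93 with the index set as a term to 3.85 with Dbp as a covariate. None of these values was called. The Zbtb16 slope held its call in 3 of 8 alternatives that kept all mice (RLE factors, no filter, log10 of dose). The slope was also tried over log10 of dose, with vehicle placed 1 step below the lowest dose.

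Over all genes, the number called at 1 μg/kg (33) was 72 with DESeq2, 59 without the filter, 12 with the index set, 1 with Dbp, 58 with the Hox score and 3 to 24 without 1 mouse. At 3 μg/kg (115) it was 231 by adjusted p alone, 198 with DESeq2, 180 without the filter, 230 with only the groups compared, 2 with the index set, 6 with Dbp and 48 to 97 without 1 mouse. At 10 μg/kg (294) it was 532 by adjusted p alone, 58 with the index set, 16 with Dbp and 163 to 228 without 1 mouse. At 30 μg/kg (1016) it was 1818 by adjusted p alone, 662 with only the groups compared, 137 with Dbp and 590 to 1084 without 1 mouse. For 30 against 3 μg/kg (76) it was 148 with DESeq2, 148 without the filter, 32 with only the groups compared, 142 with the Hox score and 33 to 142 without 1 mouse. For the slope (3865) it was 11 with the index set and 397 with Dbp.

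Signs turned as follows, in log2 fold change against vehicle unless said, and none of the values so reached was called. With the index set as a term Nr3c1 was at -0.19, -0.38, -0.39 and -0.39 at 1, 3, 10 and 30 μg/kg and had a slope of -0.025, Hsd11b1 was at -0.52 and Zbtb16 at 1.42 at 3 μg/kg, and Sgk1 was at -0.86 at 30 μg/kg with a slope of 0.019. With Dbp as a covariate Klf9 was at -0.58, -0.64, -0.40 and -0.53 at 1, 3, 10 and 30 μg/kg with a slope of -0.013, and Nr3c2 was at -0.11 and -0.19 at 3 and 30 μg/kg with a slope of -0.015; both slopes were called as reported. With Dbp, Hsd11b1 was at 2.07 and 2.27 at 1 and 10 μg/kg, Fkbp5 at 0.33 at 1 μg/kg, Tsc22d3 at 0.016 at 3 μg/kg, Zbtb16 at -0.12 at 10 μg/kg and the Sgk1 slope at 0.11. With the Hox score Nr3c1 was at -0.018 and Zbtb16 at 0.17 at 3 μg/kg, and Nr3c1 at 0.12 and Klf9 at -0.015 for 30 against 3 μg/kg. Nr3c1 for 30 against 3 μg/kg was at 0.0013 with RLE factors and 0.0012 with DESeq2. The Sgk1 slope was 0.00098 with RLE factors, 0.00097 with DESeq2 and 0.00043 with limma voom, which put Fkbp5 at 0.00072 at 1 μg/kg.

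Leaving out 1 mouse also crossed 0 in uncalled values. The ranges were -0.094 to 0.094 for Fkbp5 at 1 μg/kg; -0.56 to 0.37, -0.12 to 0.82 and -0.51 to 0.41 for Hsd11b1 at 1, 3 and 10 μg/kg; -0.055 to 0.12, -0.063 to 0.10 and -0.065 to 0.11 for Nr3c1 at 3, 10 and 30 μg/kg. They were -0.053 to 0.11 for Nr3c2 at 30 μg/kg, -0.20 to 0.16 for Sgk1 at 3 μg/kg, -0.015 to 0.013 for its slope, -0.78 to 0.24 for Zbtb16 at 3 μg/kg, and for 30 against 3 μg/kg -0.032 to 0.16 for Klf9 and -0.068 to 0.087 for Nr3c1. Without the 2 mice farthest from the median Dbp, r with Dbp changed sign for Nr3c1 (0.0238), Hsd11b2 (0.118), Sgk1 (0.0492) and Zbtb16 (-0.255) in the first index set, and for Hsd11b2 (0.0396), Tsc22d3 (0.0965), Sgk1 (-0.749, permutation p = 0.0205, adjusted p = 0.369) and Zbtb16 (0.00887) in the second.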
